A study of Mus musculus with 112 samples.

Results

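Interferon-inducible GTPases and a factor that induces them were followed in mouse hearts under calorie restriction (CR). The set named 7 genes: the immunity-related GTPases (IRG proteins) Iigp1, Igtp, Irgm1 and Irgm2, the guanylate-binding proteins (GBPs) Gbp2 and Gbp3, and the transcription factor Irf1. A gene was measured when the array held a probe set listed for that gene alone, and the brightest such probe set was taken. This gave 4 measured genes of the 7, among 19938 genes measured in all: Iigp1 (probe set 10455961, chromosome 18), Irgm1 (10385500, chromosome 11), Gbp3 (10496580, chromosome 3) and Irf1 (10376060, chromosome 11). The other 3 are given no value, because Igtp and Irgm2 share a probe set with each other and Gbp2 shares one with Gbp2b.

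The study asked which transcripts respond to short-term CR across genetic backgrounds. Male mice of 6 inbred strains and 1 hybrid were housed singly, fed 84 kcal per week of a purified diet until 8 weeks of age, and then given a calorie restricted or a control diet for 14 weeks. The groups were CR and control hearts, 8 mice each, of 129S1/SvImJ, BALB/cJ (Balbc/J in some labels), C57BL/6J (C57BL6/J in some labels), C3H/HeJ, CBA/J, DBA/2J and the F1 hybrid B6C3F1/J. A further cut in food was made for the restricted C57BL/6J and 129S1/SvImJ mice, while both BALB/cJ groups received more food, so the size of the restriction was not the same in all strains. RNA of each heart was hybridised to its own Affymetrix Mouse Gene 1.0 ST array, and a value is a log2 signal, on which a difference of 1 is a doubling. 1 array, DBA/2J CR replicate 7, stood apart from all others (correlation of 0.238 with its group, against a median of 0.989) and was left out, as the study itself did, which left 55 CR and 56 control hearts.

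Interferons are signalling proteins released by cells that sense infection. Interferon gamma, made mainly by T and NK cells, acts through its receptor and turns on Irf1. IRF1 takes part in turning on the IRG and GBP genes together with genes of antigen presentation. IRG and GBP proteins are GTPases that gather on the membranes around intracellular pathogens and help to break them. Irgm1 and its relatives act mainly on host membranes and hold the effector IRGs, such as the product of Iigp1, in check. The heart is not a classical immune tissue, but most of its cell types carry receptors for interferons.

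The promoters of 3 of the 4 measured genes were taken from RefSeq (GRCm38.p6, 250 bases before to 50 after the start) and are printed because they carry letters through which this family is known to be induced. The promoter of Iigp1 was not analysed here. Capitals mark matches, on either strand, to the core of the interferon-stimulated response element, GAAA, any 2 bases and GAAA again, which interferon regulatory factors bind, or to the gamma-activated site, TTCNNNGAA, found in promoters that respond to interferon gamma. Of 32851 promoters of this length, 3.44% held the first motif and 8.3% the second. The first starts of Irgm1 (minus strand, chr11:48871371-48871670), Gbp3 (plus strand, chr3:142559794-142560093) and Irf1 (plus strand, chr11:53769764-53770063) read:
Irgm1: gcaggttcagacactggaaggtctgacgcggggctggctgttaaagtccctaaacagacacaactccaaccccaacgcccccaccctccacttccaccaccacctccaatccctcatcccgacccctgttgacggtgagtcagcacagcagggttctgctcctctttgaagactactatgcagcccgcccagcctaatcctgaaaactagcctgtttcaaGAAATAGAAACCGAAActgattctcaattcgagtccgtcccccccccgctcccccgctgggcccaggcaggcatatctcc
Gbp3: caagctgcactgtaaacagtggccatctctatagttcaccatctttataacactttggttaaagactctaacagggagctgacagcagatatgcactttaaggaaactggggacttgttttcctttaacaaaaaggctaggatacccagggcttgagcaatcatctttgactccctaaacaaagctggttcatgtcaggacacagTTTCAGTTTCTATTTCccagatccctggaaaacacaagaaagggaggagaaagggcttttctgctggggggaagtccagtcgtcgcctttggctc
Irf1: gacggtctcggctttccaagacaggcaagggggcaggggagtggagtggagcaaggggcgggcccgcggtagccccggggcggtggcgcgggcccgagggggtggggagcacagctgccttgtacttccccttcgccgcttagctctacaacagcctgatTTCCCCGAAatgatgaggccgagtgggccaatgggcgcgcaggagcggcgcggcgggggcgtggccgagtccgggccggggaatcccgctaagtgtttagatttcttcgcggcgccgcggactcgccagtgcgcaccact

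In Irgm1 and Gbp3 the capitals are 2 overlapping matches to the response element that begin 30 and 24 bases before the start in Irgm1 and 45 and 39 bases before it in Gbp3. The 16-base run of Gbp3 lies on the opposite strand and, turned round, reads GAAATAGAAACTGAAA, identical to that of Irgm1 at 15 of 16 bases, although the genes belong to different families. Irf1 has 1 gamma-activated site, 90 bases before its first start, and no match to the response element core. The second starts listed for Gbp3 and Irf1 held no match to either motif. A match is a description of these letters and says nothing of whether a factor was bound in these hearts.

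Iigp1, the effector GTPase, had a lower mean in CR than in control hearts in 6 of 7 strains, as had 12% of all genes in at least 6. In 129S1/SvImJ it ran from 6.43 to 7.89 in CR hearts (median 6.95) and from 7.41 to 8.63 in control hearts (median 8.01). In C57BL/6J it ran from 6.70 to 7.29 in CR hearts (median 7.06) and from 6.61 to 8.79 in control hearts (median 8.10). In both strains all 8 CR hearts lay below the control median, and the highest values were those of control hearts.

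In DBA/2J Iigp1 ran from 5.74 to 6.80 in CR hearts (median 6.06, n = 7) and from 6.28 to 7.35 in control hearts (median 6.73). In BALB/cJ it ran from 4.80 to 6.58 in CR hearts (median 5.83) and from 6.12 to 6.96 in control hearts (median 6.52). In B6C3F1/J it ran from 6.16 to 7.13 in CR hearts (median 6.77) and from 7.01 to 7.55 in control hearts (median 7.14). Most CR hearts of these strains lay under the lowest control heart (5 of 7, 5 of 8 and 6 of 8), while the ranges of the 2 diets still overlapped.

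In C3H/HeJ Iigp1 ran from 5.85 to 8.93 in CR hearts (median 6.35) and from 6.60 to 7.71 in control hearts (median 7.10). In CBA/J it ran from 6.60 to 9.70 in CR hearts (median 6.99) and from 6.84 to 7.81 in control hearts (median 7.19). In each of these strains a single CR heart, C3H/HeJ CR replicate 6 and CBA/J CR replicate 7, had a higher signal than every control heart of its strain, whereas the CR medians lay below the control medians. Over all strains 49 of 55 CR hearts lay below the control median of their own strain.

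**Figure D1:**
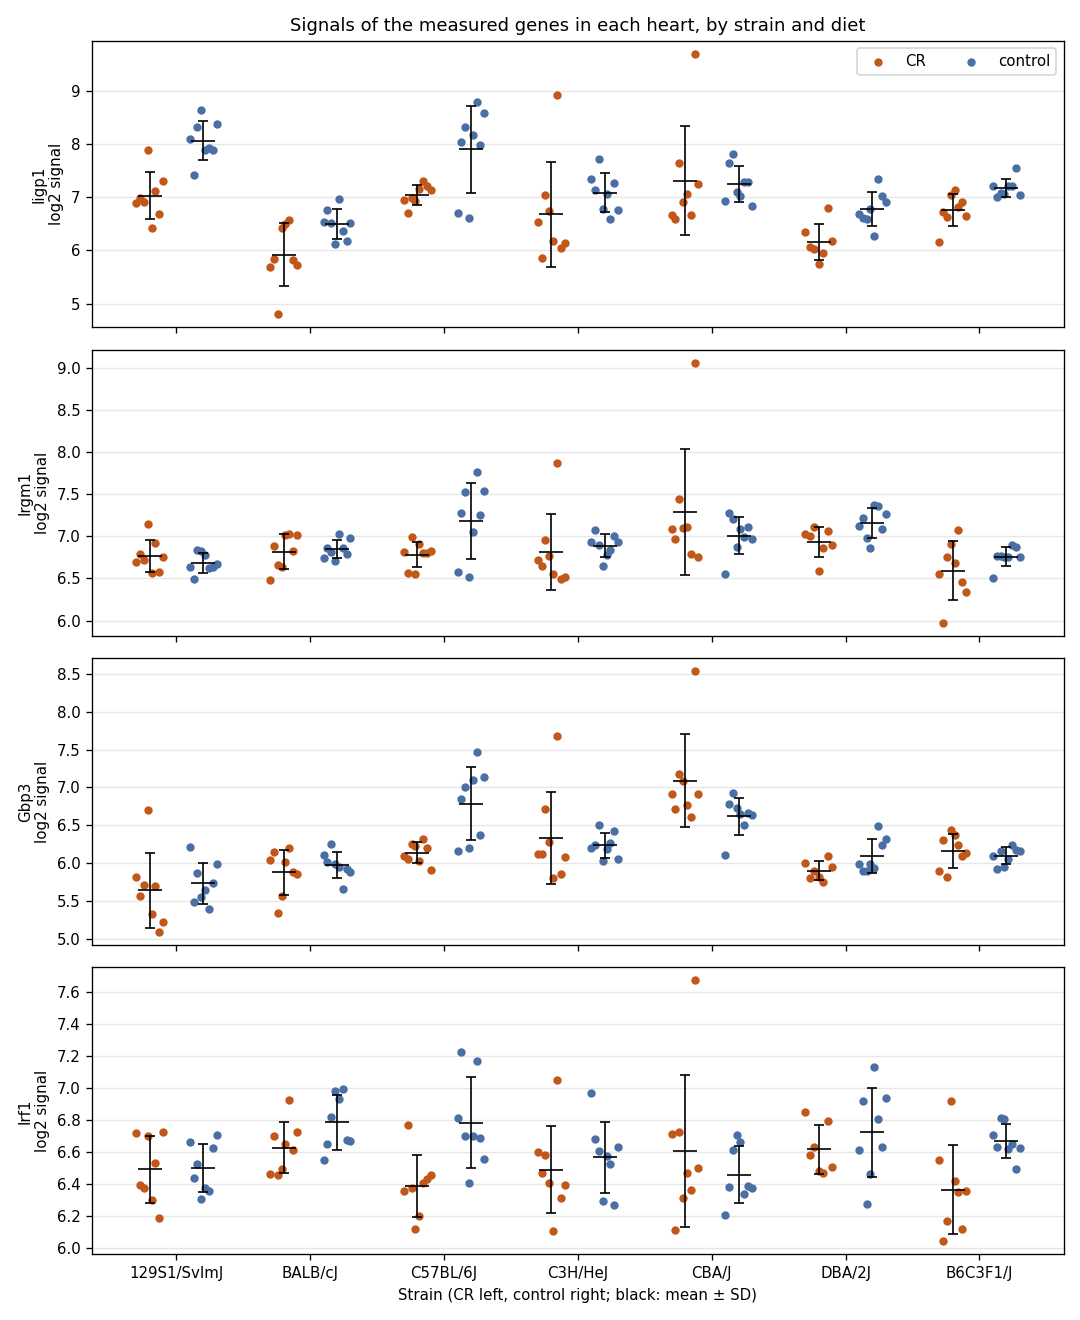
Log2 signal of Iigp1, Irgm1, Gbp3 and Irf1 (rows) in each heart by strain, CR hearts in orange at the left and control hearts in blue at the right of each strain, with bars for the group mean ± SD. CBA/J CR replicate 7 is the highest point of all 4 rows (9.70, 9.06, 8.54 and 7.67), and C57BL/6J control replicates 1 and 4 (6.70 and 6.61) lie at or just below the lowest CR heart of their strain for Iigp1.

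Averaged over the 7 strains, Iigp1 was at 6.70 in CR and 7.25 in control hearts, a difference of -0.55 (SE 0.10, 95% interval -0.74 to -0.35), or 1.46-fold lower in CR (limma, adjusted p = 2.18e-05). Irf1 was at 6.51 in CR and 6.64 in control hearts, a difference of -0.13 (SE 0.0455) or 1.09-fold (limma, adjusted p = 0.0494). The differences of Irgm1 (6.86 in CR, 6.93 in control; -0.08, SE 0.0585, 95% interval -0.19 to 0.04, adjusted p = 0.453) and Gbp3 (6.16 in CR, 6.22 in control; -0.06, SE 0.0646, 95% interval -0.18 to 0.07, adjusted p = 0.638) did not pass the limma test. Thus 2 of the 4 measured genes were called lower, where 4.34% of all genes tested were called lower and 7.69% higher. The call of Irf1 ended in 15 of 30 alternative settings, among them leaving out 1 heart only, DBA/2J control replicate 5 (adjusted p = 0.0676), B6C3F1/J CR replicate 2 (0.0664), C57BL/6J CR replicate 4 (0.0623) or C57BL/6J control replicate 1 (0.0551), whereas that of Iigp1 held in all 30. In RNA from heart tissue of mixed cell types, fewer cells of a type and less RNA per cell cannot be told apart.

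Tested on its own arrays, each strain gave fewer calls. In 129S1/SvImJ Iigp1 fell to 7.03 ± 0.44 in CR hearts, against 8.07 ± 0.37 in control hearts (SD, n = 8 each), a difference of -1.04 (SE 0.176) and the 1 call among the 28 gene and strain combinations (limma within the strain, adjusted p = 0.000957). The share of all genes called was 6.83% in this strain, 0.251% in C57BL/6J, 0.908% in B6C3F1/J, 0.0552% in C3H/HeJ, 0.015% in CBA/J, 0.01% in DBA/2J and 0 in BALB/cJ. The differences of Iigp1 were -0.85 in C57BL/6J (SE 0.260, adjusted p = 0.161), -0.62 in DBA/2J (SE 0.155, 0.361), -0.57 in BALB/cJ (SE 0.205, 0.645) and -0.42 in B6C3F1/J (SE 0.120, 0.0898). They were -0.40 in C3H/HeJ (SE 0.321, adjusted p = 0.869) and 0.07 in CBA/J (SE 0.335, 0.963), the strains with the widest CR groups. In limma's test Iigp1 reached an unadjusted p under 0.01 in 4 of 7 strains, where 0.391% of all genes reached it in at least 4. Without moderation of the variance, Iigp1 reached it in 3 strains, again on log2 signals. The study applied its own rule of at least 4 strains to tests on the raw scale, which were not run here. The count of 3 therefore does not show whether Iigp1 met that rule.

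The strain effects on Iigp1 were not called different from each other (interaction F test in limma, adjusted p = 0.427). The same held for Irgm1 (adjusted p = 0.374), Irf1 (0.321) and Gbp3 (0.0946), where 0.712% of all genes were called. Endothelial marker genes were also lower in CR hearts of 129S1/SvImJ, with a mean over 8 markers of 8.58 (range 8.49 to 8.66) in CR and 8.84 (8.70 to 9.04) in control hearts (exact permutation test, two-sided, adjusted p = 0.013 over 84 tests). Their part in the Iigp1 difference of that strain was not tested.

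**Figure D2:**
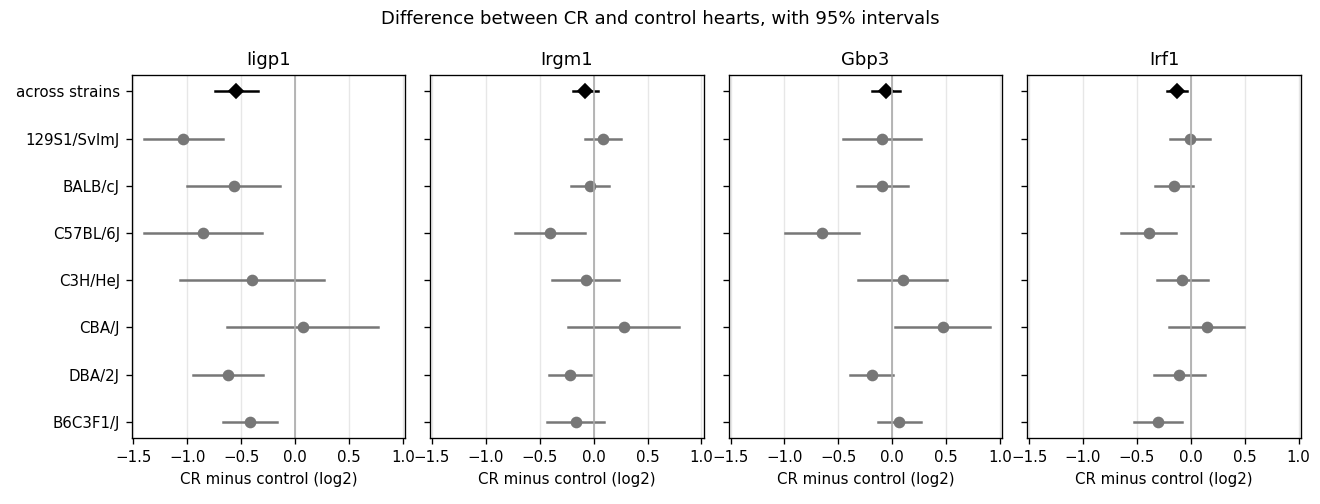
Difference between CR and control hearts (log2, x axis) for each measured gene, averaged over 7 strains (black diamond) and within each strain (grey circles), with lines for 95% intervals. Iigp1 lies below 0 in 6 of 7 strains, and in CBA/J all 4 genes lie above 0.

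Gbp3, a GTPase of the larger guanylate-binding family, differed most in C57BL/6J. There it averaged 6.14 ± 0.14 in CR and 6.79 ± 0.49 in control hearts (SD, n = 8 each), with a range of 5.91 to 6.32 in CR and of 6.15 to 7.47 in control hearts. All 8 CR hearts lay below the control median, and 6 control hearts lay above every CR heart. The difference was -0.65 (SE 0.165, limma within the strain, adjusted p = 0.0958). In CBA/J Gbp3 averaged 7.09 ± 0.61 in CR and 6.62 ± 0.24 in control hearts, a difference of 0.47 (SE 0.210, adjusted p = 0.732). In the other 5 strains the differences ran from -0.19 in DBA/2J to 0.10 in C3H/HeJ.

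Irgm1, which restrains the effector IRGs, likewise had its lowest difference in C57BL/6J. It averaged 6.78 ± 0.15 in CR and 7.19 ± 0.45 in control hearts (-0.40, SE 0.156, adjusted p = 0.280). In DBA/2J it averaged 6.94 ± 0.18 in CR and 7.16 ± 0.18 in control hearts (-0.22, SE 0.0929, adjusted p = 0.894), with all 7 CR hearts below the control median. In the remaining strains the difference ran from -0.17 in B6C3F1/J to 0.28 in CBA/J, with ranges of CR and control hearts that overlapped.

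Irf1, the transcription factor upstream of the GTPases, differed by -0.39 in C57BL/6J (6.39 ± 0.19 in CR and 6.78 ± 0.28 in control hearts, SE 0.120, adjusted p = 0.163). In B6C3F1/J it differed by -0.30 (6.37 ± 0.28 in CR and 6.67 ± 0.11 in control hearts, SE 0.107, adjusted p = 0.137), and 6 of 8 CR hearts lay under the lowest control heart. In 129S1/SvImJ, where Iigp1 differed most, Irf1 averaged 6.49 ± 0.21 in CR and 6.50 ± 0.15 in control hearts. A second, dimmer probe set of Irf1 differed by -0.07 over the strains (SE 0.0347, adjusted p = 0.163).

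The C57BL/6J controls were not alike. Iigp1 lay between 6.70 and 7.29 in the 8 CR hearts of the strain, while control replicates 1 and 4 had signals of 6.70 and 6.61 and the other 6 controls lay between 7.99 and 8.79. Irgm1 showed the same split, at 6.57 and 6.52 in these mice and 7.05 to 7.76 in the others, and Gbp3 was at 6.15 and 6.20, against 6.38 to 7.47. Irf1 was at 6.81 and 6.41, inside the range of 6.56 to 7.23 of the others for replicate 1. The 2 mice thus sat among the CR hearts of their strain, or just below them, in all 3 GTPases. Macrophage markers averaged 6.97 in control replicate 1, the lowest control of the strain, and 7.09 in replicate 4, where the highest control had 7.79. Replicate 4 also had the highest white adipocyte mean (9.03, others 4.98 to 8.58) and brown adipocyte mean (10.5, others 5.77 to 9.75) and the lowest mean of general cardiomyocyte markers (11.2, others 12.2 to 12.8) among the controls of the strain. The part of these markers in the split was not tested.

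Atrial marker genes in C57BL/6J had a mean of 7.54 (range 5.92 to 10.7) in CR and 9.97 (6.76 to 11.3) in control hearts. White adipocyte markers averaged 5.90 (4.64 to 8.95) in CR and 7.20 (4.98 to 9.03) in control hearts. Over the 7 strains the atrial difference ran from -2.43 in C57BL/6J to 1.38 in B6C3F1/J. Neither C57BL/6J difference passed the exact permutation test, with adjusted p-values of 0.252 and 0.525 over 84 tests, two-sided. With both marker means as covariates in limma, a setting chosen after the values were seen, Gbp3 was the 1 measured gene called for an interaction of strain and diet (adjusted p = 0.0493). The part of atrial and fat tissue in the C57BL/6J differences was not otherwise tested.

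2 CR hearts stood above the rest of their groups in all 4 measured genes and most other IRG and GBP genes. In CBA/J CR replicate 7, Iigp1 was at 9.70 against a mean of 6.97 ± 0.38 in the other 7 CR hearts of the strain, 6.61-fold higher, and only 4 genes of the array rose more. Irgm1 was 4.07-fold higher (9.06 against 7.04 ± 0.23), Gbp3 3.14-fold (8.54 against 6.88 ± 0.20) and Irf1 2.32-fold (7.67 against 6.46 ± 0.22). This mouse was the highest of its group in all 4 measured genes, in 10 of 13 other IRG and GBP genes and in 20 of 27 other targets of interferon gamma, where it was the highest in 17.4% of all genes. The 3 exceptions were Gbp2b (4.81, others 3.82 to 4.84), Irgc1 (4.83, others 4.66 to 4.97) and Irgq (5.17, others 5.43 to 5.81).

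In C3H/HeJ CR replicate 6, Iigp1 was at 8.93 against 6.36 ± 0.42 in the other 7 CR hearts, 5.92-fold higher, and only 1 gene of the array rose more. Gbp3 was 2.91-fold higher (7.68 against 6.14 ± 0.30), Irgm1 2.31-fold (7.87 against 6.66 ± 0.16) and Irf1 1.55-fold (7.05 against 6.41 ± 0.17). It was the highest of its group in 11 of 13 other IRG and GBP genes and 22 of 27 interferon gamma targets, where it was the highest in 12.7% of all genes. The exceptions were Irgc1 (4.65, others 4.46 to 5.04) and Irgq (5.79, others 5.50 to 5.99).

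Further genes of these hearts were picked after their values were seen. Cxcl9, a T cell attracting chemokine induced by interferon gamma, was at 6.87 in the CBA/J heart (others 4.52 to 5.55) and at 6.59 in the C3H/HeJ heart (others 4.60 to 5.21). Cd274, the checkpoint ligand PD-L1, was at 8.81 (others 6.36 to 7.02) and at 7.46 (others 5.79 to 6.65). Both genes stood clear of the other hearts of the group, as the GTPases did.

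Ifng, which encodes the cytokine itself, was at 5.29 in the CBA/J heart (others 4.43 to 5.11) and at 4.96 in the C3H/HeJ heart (others 4.52 to 4.97). These signals, and those of most T and NK cell markers, were dim, under the lowest array median of 5.31. A rise in them could therefore be missed. The mean of 11 T and NK cell markers was 4.55 in the CBA/J heart (others 4.11 to 4.42) and 4.56 in the C3H/HeJ heart (others 4.19 to 4.54), and that of 9 macrophage markers was 7.23 (others 6.74 to 6.95) and 7.27 (others 6.80 to 7.25). All these means of T and NK cell and macrophage markers were the highest of their groups. In the CBA/J heart the macrophage mean lay 0.40 and the T and NK cell mean 0.32 above the mean of the others. In the C3H/HeJ heart they lay 0.23 and 0.26 above it, just over the highest other heart. Neutrophil markers were at 4.03 in the CBA/J heart (others 3.93 to 4.26) and at 4.69 in the C3H/HeJ heart (others 3.92 to 4.50), and endothelial markers at 8.55 in the CBA/J heart (others 8.76 to 8.96) and at 8.83 in the C3H/HeJ heart (others 8.72 to 8.93). The part of these cell types in the rise of the GTPases was not tested. The median of the autophagy and ubiquitin genes that work with these GTPases lay at -0.09 and -0.04 relative to the other hearts, against 0.01 and -0.01 for all genes.

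Both hearts belong to the CR groups, and they raise the CR mean. Without them, a choice made after seeing the values of these same genes, the difference over strains was -0.64 for Iigp1 (limma, adjusted p = 2.42e-10), -0.16 for Irf1 (0.00221), -0.13 for Irgm1 (0.0236) and -0.11 for Gbp3 (0.151), so that Irgm1 was called lower as well. Within CBA/J, the difference of Iigp1 without replicate 7 was -0.27 (adjusted p = 0.772), where it was 0.07 with all hearts.

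The 4 genes varied together among hearts of the same strain and diet. The deviations of each heart from its group mean correlated between Iigp1 and Gbp3 with r = 0.814 (Spearman's rho = 0.676) and between Iigp1 and Irgm1 with r = 0.797 (rho = 0.662). Irgm1 and Gbp3 correlated with r = 0.734 (rho = 0.539). All 3 pairs of GTPases thus moved closely together over the 55 CR and 56 control hearts.

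Irf1 followed the GTPases less closely, with r = 0.643 for Irgm1 (rho = 0.480), 0.571 for Gbp3 (rho = 0.416) and 0.514 for Iigp1 (rho = 0.316). Each of the 6 pairs had an adjusted p of at most 7e-05 for r (permutation within groups, two-sided, adjusted over 6 pairs, with 1e-05 the smallest p the permutations allow). The same permutation test on ranks centered within groups gave an adjusted p of at most 0.003. That measure is not the same as the rho given here, which was itself not tested. Without the 2 hearts farthest from the median, which for every pair were the 2 high CR hearts, r was 0.710, 0.670 and 0.582 for the GTPase pairs and 0.471, 0.406 and 0.310 for the pairs with Irf1. Within groups, the correlation of Iigp1 and Gbp3 was positive in all 14, and that of Iigp1 and Irf1 in 10 of 14. The genes of a heart share its library and array, so part of a correlation can come from those.

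**Figure D3:**
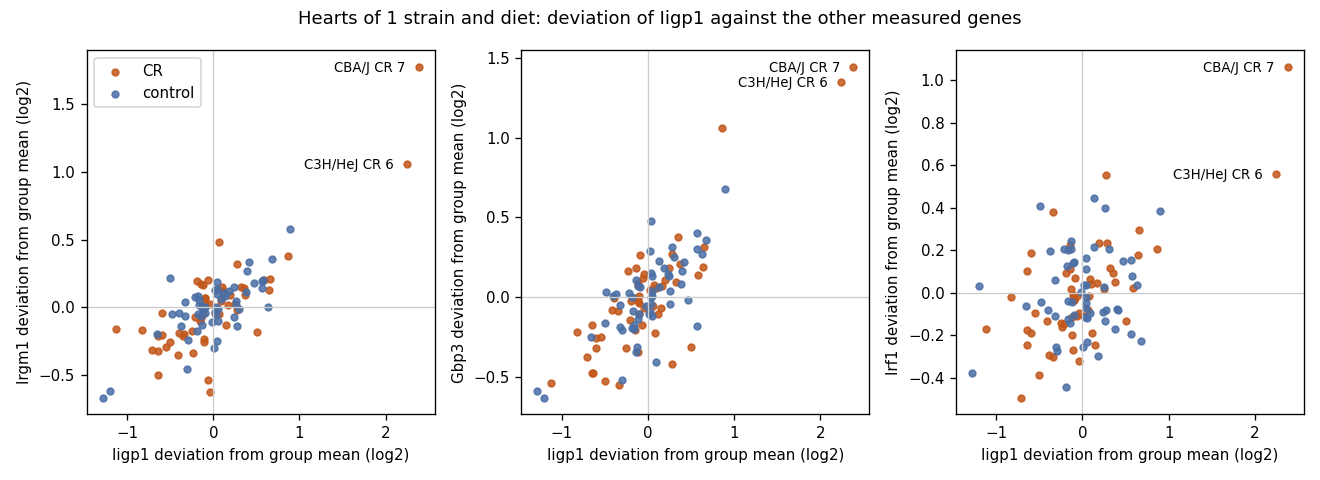
Deviation of Irgm1, Gbp3 and Irf1 (y axes) against that of Iigp1 (x axis) from the mean of the heart's strain and diet group, in log2, 1 point per heart, CR in orange and control in blue. CBA/J CR replicate 7 and C3H/HeJ CR replicate 6 lie at the far right, and r was 0.797, 0.814 and 0.514 with these hearts and 0.670, 0.710 and 0.310 without them.

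The genes most like the 4, by the correlation with the mean of their standardised deviations over all these hearts, included 2 other GBPs. They were Gbp7 (r = 0.867, and 0.779 without the 2 high CR hearts), Gm8995 (0.848 and 0.772), Gbp4 (0.838 and 0.755), BC023105 (0.802 and 0.659) and Irf9 (0.779 and 0.702), a subunit of the type I interferon transcription complex. The middle 90% of all other genes lay between -0.226 and 0.254. Over the 14 group means, which carry the strain and diet differences, the closest were Cd274 (r = 0.873), Gbp8 (0.869), Phf11d (0.856), Scube3 (0.835) and Rtp4 (0.816), against -0.395 to 0.482 for the middle 90% of all genes. The 2 lists of 5 shared no gene.

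In control hearts all 4 genes differed between strains (F test in limma, adjusted p = 4.1e-07 for Iigp1, 2.84e-07 for Gbp3, 0.0156 for Irgm1 and 0.0484 for Irf1), as did 60.7% of all genes. The call of Irf1 ended without 6 other arrays that stood apart (adjusted p = 0.102). Iigp1 control means were 8.07 ± 0.37 in 129S1/SvImJ, 7.90 ± 0.81 in C57BL/6J, 7.24 ± 0.34 in CBA/J, 7.17 ± 0.17 in B6C3F1/J, 7.08 ± 0.37 in C3H/HeJ, 6.77 ± 0.32 in DBA/2J and 6.49 ± 0.28 in BALB/cJ. No 2 neighbours in this order differed in limma's test (adjusted p of 0.0698 for C57BL/6J over CBA/J, 0.483 or more for the rest), while 10 of all 21 strain pairs did. The widest gap, 129S1/SvImJ minus BALB/cJ, was 1.57 (SE 0.264, adjusted p = 2.03e-06).

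Gbp3 was ordered differently. Its control means were 6.79 ± 0.49 in C57BL/6J, 6.62 ± 0.24 in CBA/J, 6.24 ± 0.17 in C3H/HeJ, 6.09 ± 0.11 in B6C3F1/J, 6.09 ± 0.23 in DBA/2J, 5.97 ± 0.17 in BALB/cJ and 5.73 ± 0.28 in 129S1/SvImJ. Here too neighbours did not differ in the test (adjusted p of 0.107 or more) and 10 of 21 pairs did. 129S1/SvImJ, the strain with the highest Iigp1, had the lowest Gbp3, 1.06 below C57BL/6J (129S1/SvImJ minus C57BL/6J -1.06, SE 0.170, adjusted p = 7.59e-07).

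Irgm1 and Irf1 spread less. Irgm1 control means ran from 7.19 ± 0.45 in C57BL/6J through DBA/2J (7.16 ± 0.18), CBA/J (7.01 ± 0.22), C3H/HeJ (6.89 ± 0.13), BALB/cJ (6.85 ± 0.11) and B6C3F1/J (6.76 ± 0.12) to 6.69 ± 0.12 in 129S1/SvImJ, with 3 of 21 pairs called and no neighbours. Irf1 control means ran from 6.79 ± 0.17 in BALB/cJ through C57BL/6J (6.78 ± 0.28), DBA/2J (6.72 ± 0.28), B6C3F1/J (6.67 ± 0.11), C3H/HeJ (6.57 ± 0.22) and 129S1/SvImJ (6.50 ± 0.15) to 6.46 ± 0.18 in CBA/J, with 2 of 21 pairs called. Over all genes 17.9% of strain pairs were called. The probes were not compared with the sequence of each strain, so a mismatch under a probe and a lower transcript level were not told apart in these strain differences.

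The hybrid B6C3F1/J, whose parents are C57BL/6J and C3H/HeJ, had GTPase levels below those of C57BL/6J. Its Gbp3 mean of 6.09 was below that of C57BL/6J (C57BL/6J minus B6C3F1/J 0.69, SE 0.170, adjusted p = 0.00137) and next to that of C3H/HeJ (6.24, adjusted p = 0.640), which did not differ from it in the test. Its Iigp1 mean of 7.17 was also below that of C57BL/6J (0.73, SE 0.264, adjusted p = 0.0401) and close to that of C3H/HeJ (C3H/HeJ minus B6C3F1/J -0.09, SE 0.264, adjusted p = 0.875). For Irgm1, C57BL/6J minus B6C3F1/J was 0.43 (SE 0.154, adjusted p = 0.0389).

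Among the other IRG and GBP genes, 3 GBPs were called lower in CR hearts and none of the IRGs. Of 13 measured, 0 were called higher and 3 lower in CR hearts (against 7.69% and 4.34% of all genes), with a median difference of -0.09 against 0.00 for all genes. Gbp9 differed by -0.29 (6.24 in CR, 6.53 in control; SE 0.0710, adjusted p = 0.00181), Gbp4 by -0.29 (6.84 in CR, 7.13 in control; SE 0.0934, adjusted p = 0.0258) and Gbp7 by -0.20 (7.13 in CR, 7.33 in control; SE 0.0634, adjusted p = 0.0240). The IRGs of this list were dimmer, with mean signals from 4.395 (Gm4841) to 5.67 (Gm4951), so a change in them could be missed. Without the 2 high CR hearts 5 of the 13 were called lower, with a median of -0.16. These hearts were left out because of high signals in this family, which by itself lowers the CR mean.

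Seen by strain, the 16 IRG and GBP genes, Iigp1, Irgm1 and Gbp3 included, had mean differences below 0 for most genes in 5 strains and not in the other 2. The difference was below 0 for 14 of 16 in 129S1/SvImJ, BALB/cJ, C57BL/6J and DBA/2J each and for 13 in B6C3F1/J. It was below 0 for 8 of 16 in C3H/HeJ and 2 of 16 in CBA/J, the strains that hold the 2 high CR hearts. Means of the other CBA/J CR hearts still lay above the control means for Gbp3 (6.88 against 6.62) and Irgm1 (7.04 against 7.01). For Iigp1 they lay below (6.97 against 7.24). CBA/J control replicate 1 had the lowest correlation with its group of the arrays used (0.889). It was the lowest CBA/J control for Irgm1 (6.56) and Gbp3 (6.10), but not for Iigp1. The part of these hearts in the CBA/J count was not tested. The median was lowest in C57BL/6J (-0.46) and highest in CBA/J (0.23). Iigp1 had the lowest value of the 16 in 5 strains, and Gbp9 in B6C3F1/J (-0.59).

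**Figure D4:**
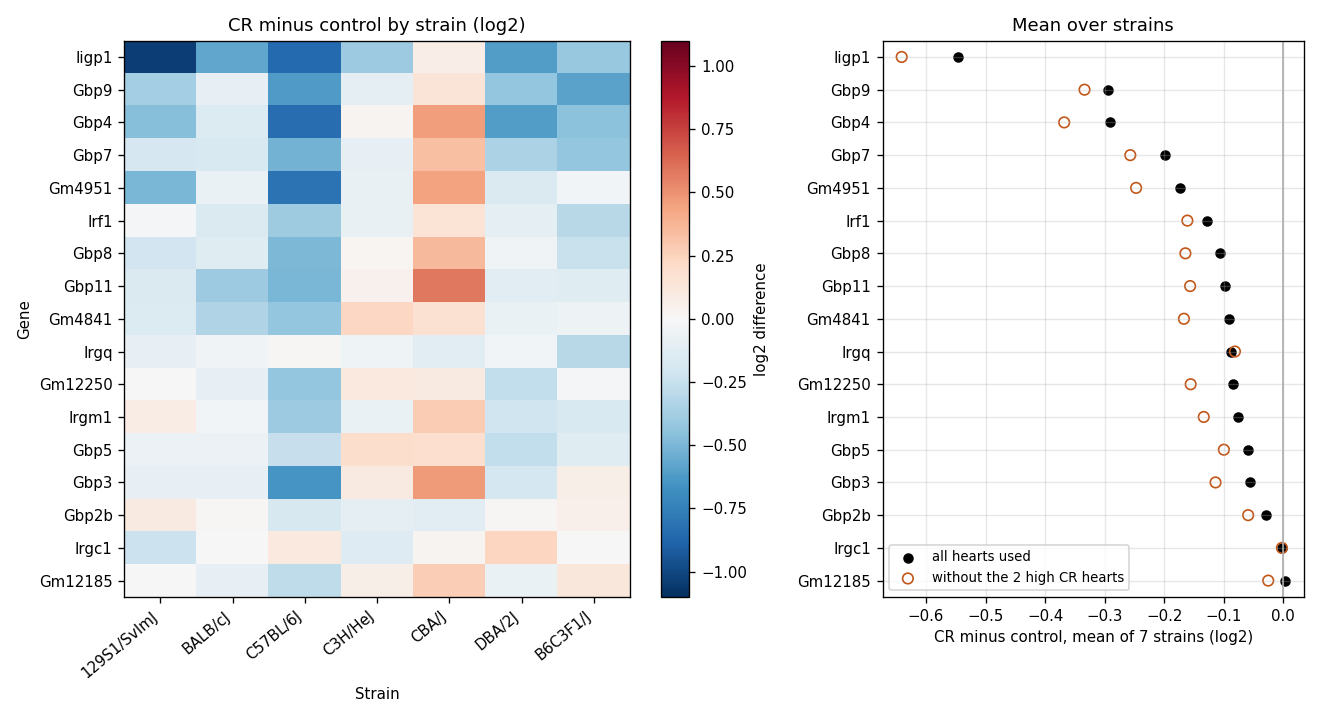
CR minus control (log2) of the 16 measured IRG and GBP genes and Irf1, by strain (left, blue below 0 and red above 0) and as the mean of 7 strains (right, filled circles for all hearts used and open circles without CBA/J CR replicate 7 and C3H/HeJ CR replicate 6). Iigp1 is lowest in the mean (-0.55, and -0.64 without the 2 hearts), C57BL/6J holds the lowest median (-0.46) and CBA/J the highest (0.23).

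Of 18 measured genes that carry the interferon gamma signal, 1 was called higher and 2 lower in CR hearts, against 7.69% and 4.34% of all genes, with a median of -0.04 against 0.00. Ifngr2, a chain of the interferon gamma receptor, rose to 11.47 in CR hearts, against 11.23 in control hearts (0.24, SE 0.0439, adjusted p = 1.95e-05), with a mean effect above 0 in all 7 strains. Socs1, a feedback inhibitor of the JAK kinases, differed by -0.14 (5.97 in CR, 6.11 in control; SE 0.0427, adjusted p = 0.0223), lower, in 7 of 7 strains. Stat2 differed by -0.12 (6.49 in CR, 6.61 in control; SE 0.0414, adjusted p = 0.0379). Ifng itself was at 4.65 in CR and 4.70 in control hearts (-0.05, SE 0.0475, adjusted p = 0.538). Its mean of 4.68 lay under the lowest array median of 5.31, so a change in so dim a gene could be missed. Ifngr1, the other receptor chain, was at 8.38 in CR and 8.41 in control hearts (-0.04, adjusted p = 0.668).

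Of 27 other targets of interferon gamma, 1 was called higher and 5 lower, against 7.69% and 4.34% of all genes, with a median of -0.08 against 0.00. The MHC class II genes H2-Ab1 (-0.29, 7.05 in CR, 7.35 in control; SE 0.0957, adjusted p = 0.0291) and H2-Eb1 (-0.28, 6.92 in CR, 7.20 in control; SE 0.0834, adjusted p = 0.0157) and the proapoptotic Xaf1 (-0.15, 6.24 in CR, 6.39 in control; SE 0.0408, adjusted p = 0.00559) were lower in CR hearts. Psme1, a subunit of the proteasome activator, was higher (0.14, 8.98 in CR, 8.84 in control; SE 0.0412, adjusted p = 0.0141), in 7 of 7 strains. Without the 2 high CR hearts 10 were called lower and 1 higher, where 2335 of all genes were called in either direction, against 2399 with them. These CR hearts were left out because of high signals in such genes, which by itself lowers the CR mean. The added lower calls are therefore no further evidence of an effect of CR.

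Genes named for type I interferon, which acts through other receptors but shares targets with interferon gamma, had 0 of 23 called higher and 9 lower, against 7.69% and 4.34% of all genes, with a median of -0.12 against 0.00. The smallest p-values were those of Parp14 (-0.19, SE 0.0433, adjusted p = 0.000794), the RNA sensor Ifih1 (-0.15, SE 0.0341, 0.000958), Oas2 (-0.23, SE 0.0559, 0.00233) and Ifit1 (-0.25, SE 0.0631, 0.00351). Of 15 autophagy and ubiquitin genes that work with these GTPases, 1 was called higher and 2 lower, again against 7.69% and 4.34% of all genes, with a median of 0.01. The autophagy receptor Sqstm1, also a target of stress factors, was at 10.68 in CR and 11.09 in control hearts (-0.41, SE 0.0470, adjusted p = 3.99e-11), in 7 of 7 strains. Rnf213 differed by -0.19 (SE 0.0579, adjusted p = 0.0172) and Atg12 by 0.08 (SE 0.0281, adjusted p = 0.0462), a call that ended without the 2 high CR hearts (adjusted p = 0.0671).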

How the data were processed

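The authors hybridised total RNA of each heart to its own array and deposited log2 signals made by RMA in Affymetrix Expression Console, with versions and an annotation build that were not given in the sources used here. All 35556 probe sets of the deposited table were read: 21789 were listed for 1 gene symbol, 1621 for several and 12146 for none. The brightest single-symbol probe set stood for a gene. Medians of the arrays used lay between 5.31 and 5.57. Precision is limited by how many arrays each group holds. The mice are separate animals per the labels.

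CR was compared with control in R 4.3.3 with limma 3.58.1 (lmFit, eBayes) on a mean per strain-by-diet group. The effect over strains weighted 7 strains equally, and each strain was also tested on its own arrays, as in the study's methods. P-values were adjusted by Benjamini-Hochberg over all 19938 genes, with a threshold of 0.05. Gene lists other than the 4 measured genes were named by up to 4 genes with the smallest p, and likeness by the top 5. The members and lists were chosen with earlier results of these data known. The test was checked on simulated data. Replicate numbers were not treated as pairs of mice (see the closing section). Alternatives changed the normalization, filter, variance model, probe sets, test, strains and arrays.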

Additional observations from a re-analysis of the deposited data

Results flagged for a closer look

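Among the 56 groups of hearts examined (4 genes in 14 groups), 9 had a heart whose gap to its nearest neighbour was large for the range of the group (Dixon's ratio at its 95% value). Chance gives such a gap in about 1 in 20 groups. The 4 genes were read in the same hearts and varied together, so the 56 are not independent and the count cannot be set against that rate. CBA/J CR replicate 7 was the heart in question for all 4 genes, at 9.70 for Iigp1, 9.06 for Irgm1, 8.54 for Gbp3 and 7.67 for Irf1. C3H/HeJ CR replicate 6 was so for Iigp1 (8.93) and Irgm1 (7.87). 129S1/SvImJ CR replicate 4 had the high Gbp3 signal of its group (6.70), and its Iigp1 signal of 7.89 was also the highest there. In B6C3F1/J controls, replicate 7 had a high Iigp1 signal (7.55) and replicate 1 a low Irgm1 signal (6.51).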

How the results depend on the processing

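The difference of Iigp1 over the strains kept its sign and its call in all 30 alternatives (-0.65 to -0.46, adjusted p at most 0.00334), and those of Irgm1 and Gbp3 lay between -0.14 and 0.04. Irgm1 was called only without both high CR hearts (-0.13, adjusted p = 0.0236), and Gbp3 had the opposite sign without C57BL/6J (0.0425, adjusted p = 0.753). The count of measured genes called over strains was 1 in place of 2, with Irf1 lost, in 15 alternatives: with DBA/2J CR replicate 7 (adjusted p = 0.0607), with arrays centered on their median (0.0810), in the ANOVA without moderation (0.0515), without each strain in turn other than CBA/J (0.0596 to 0.286), without 6 other arrays that stood apart (0.0732), without 2 control arrays with high lymphocyte markers (0.0642), and without each of 4 single hearts named in the report. The number of all genes called over strains was 2399, against 1066 with DBA/2J CR replicate 7, 4480 with array weights and 1239 without 129S1/SvImJ. The number called for an interaction was 142, against 30 with DBA/2J CR replicate 7 and 1830 without the 6 other arrays. Irf1 no longer differed between control strains without those 6 arrays (adjusted p = 0.102).

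Within strains, the number of called values was 1, against 4 when all groups shared a fit, where Iigp1 (adjusted p = 0.0397), Gbp3 (0.0127) and Irf1 (0.0373) were called in C57BL/6J as well, and 2 without the array of each strain that stood apart or without C57BL/6J control replicate 1 (Gbp3 in C57BL/6J, adjusted p = 0.0350 and 0.0409). With atrial and fat marker means as covariates, 1 measured gene in place of 0 was called for an interaction. Values near 0 changed sign: Irf1 in 129S1/SvImJ with centered arrays (0.0090), Iigp1 (-0.27) and Irf1 (-0.0037) in CBA/J without replicate 7, and Gbp3 in C3H/HeJ without CR replicate 6 (-0.0968). The causes were not tested. The settings that leave out the 2 high CR hearts, C57BL/6J control replicates 1 and 4 or single arrays, and the marker covariates, were chosen after seeing the data.

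Replicate numbers are shared between the diets, but nothing in the labels says that a number marks a pair, and the correlation of same-numbered mice was over 0.1 in 28 of 55 pairs (median 0.109). With the number as a replicate block within strains, Iigp1 differed by -0.54 (adjusted p = 3.22e-05), Irf1 by -0.13 (0.0335), 2532 genes were called over strains and 214 for an interaction, and no other call of the measured genes changed. The number of mice per group limits what differences could be seen.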
